A study of Mus musculus with 4 samples.

Results

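Lungs that had received both S100A8 and cancer cells (S100A8+LLC) were compared with lungs that had received neither (HBSS+vehicle), for all 98 genes of an RT-qPCR panel and with 2 of the 4 groups of the study. LLC is the Lewis lung carcinoma line, a mouse lung cancer line implanted here into the lung of female C57BL/6J mice, young adults of the strain from which the line was derived. Mice of S100A8+LLC were given 10 µg of mouse recombinant S100A8 intranasally on Days 3, 6 and 9 after LLC implantation. Mice of HBSS+vehicle had the injection vehicle without cells, and HBSS, a salt solution, by the same route. The other groups carried a single treatment, S100A8 without cancer (S100A8+vehicle, here also S100A8 alone) or cancer with HBSS (HBSS+LLC, here also LLC alone). Lungs of all groups were harvested on Day 10. The comparison addresses what differed in lungs with both the cancer and the inhaled protein from lungs with neither, and it cannot by itself assign a difference to either of them.

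Each group is 1 averaged threshold cycle (Ct) per gene, over 4 to 5 mice. Ct counts the cycles of amplification before a transcript becomes detectable, and a transcript found 1 cycle earlier was about 2 times as abundant. The panel genes had a median Ct of 23.81 in HBSS+vehicle and 24.20 in S100A8+LLC. In the control 20 genes had a Ct above 30 and 3 of them stood at the limit of 38 cycles, and in S100A8+LLC 16 were above 30 and none at the limit. No spread between mice is contained in these averages, so every difference below is a description of 2 averages, without SD, n or test. RNA came from whole lung, with cancer cells included where these were implanted, and a change in the number of cells of a type cannot be told apart from a change in RNA per cell.

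S100A8 is a calcium-binding protein abundant in neutrophils and monocytes, usually paired with S100A9, and it is released at sites of inflammation. Its cysteine can be oxidized, so that it scavenges oxidants. Oxidants in the lung are removed by superoxide dismutases, which convert superoxide into hydrogen peroxide, and by peroxiredoxins and thioredoxin, which reduce peroxides and oxidized proteins. Tumours in turn recruit myeloid cells through chemokines such as CXCL-1 and CCL-2, and growing tumours are shaped by cytokines, arginase and hypoxia-inducible factors.

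The reference decides how many genes were called, so it is given first. The first housekeeping assay was detected at 14.09 cycles in HBSS+vehicle and at 15.82 in S100A8+LLC, a difference of 1.73 cycles. The second had 22.50 and 22.75, a difference of 0.25 cycles. Each fold change below uses the mean of both. With the first assay alone every log2 fold change is higher by 0.74, and with the second alone lower by 0.74, a factor of 1.67 either way. The order of the 98 genes and the difference between any 2 of them are the same with every reference.

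With the mean of both assays, 22 genes (22.4% of the panel) exceeded the control by more than 2-fold in S100A8+LLC, 18 (18.4%) lay below it by more than 2-fold, and 58 did neither. Of these, 16 higher genes (16.3%) and 8 lower genes (8.16%) were past 2-fold with the mean and with each housekeeping assay alone. All 24 were also past 2-fold, in the same direction, with the panel's median Ct as the reference. This had to be so, since that median differed by 0.385 cycles, between the 0.25 and 1.73 of the 2 assays. The higher genes were *SOD1*, *TXN*, *ICAM-1*, *PRDX1*, *IL-10*, *ARG1*, *IL-18*, *CDH1*, *IL-17β*, *IL-4*, *IFN-γ*, *KRT14*, *HIF-3α*, *MT2*, *IL-2* and *TGF-β1*. The lower genes were *IL-13*, *HIF-2α*, *IL-12β*, *KRT5*, *CXCL-1*, *IL-1β*, *LCK* and *CXCL-5*. Of the 16 higher genes, *IL-4*, *HIF-3α* and *IL-2* were above 35 cycles in both groups, where few molecules are detected, and 13 were not. The remaining 6 higher genes (*MKP1*, *CDKN1A*, *GSTM*, *HIF-1α*, *MMP-9* and *CAT2*) were not past 2-fold with the second assay alone, and the remaining 10 lower genes were not with the first alone. No gene could be past 2-fold in opposite directions with different housekeeping references. These shift all genes alike, by 1.48 in log2 between the 2 assays, which is less than the distance between the thresholds.

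**Figure D1:**
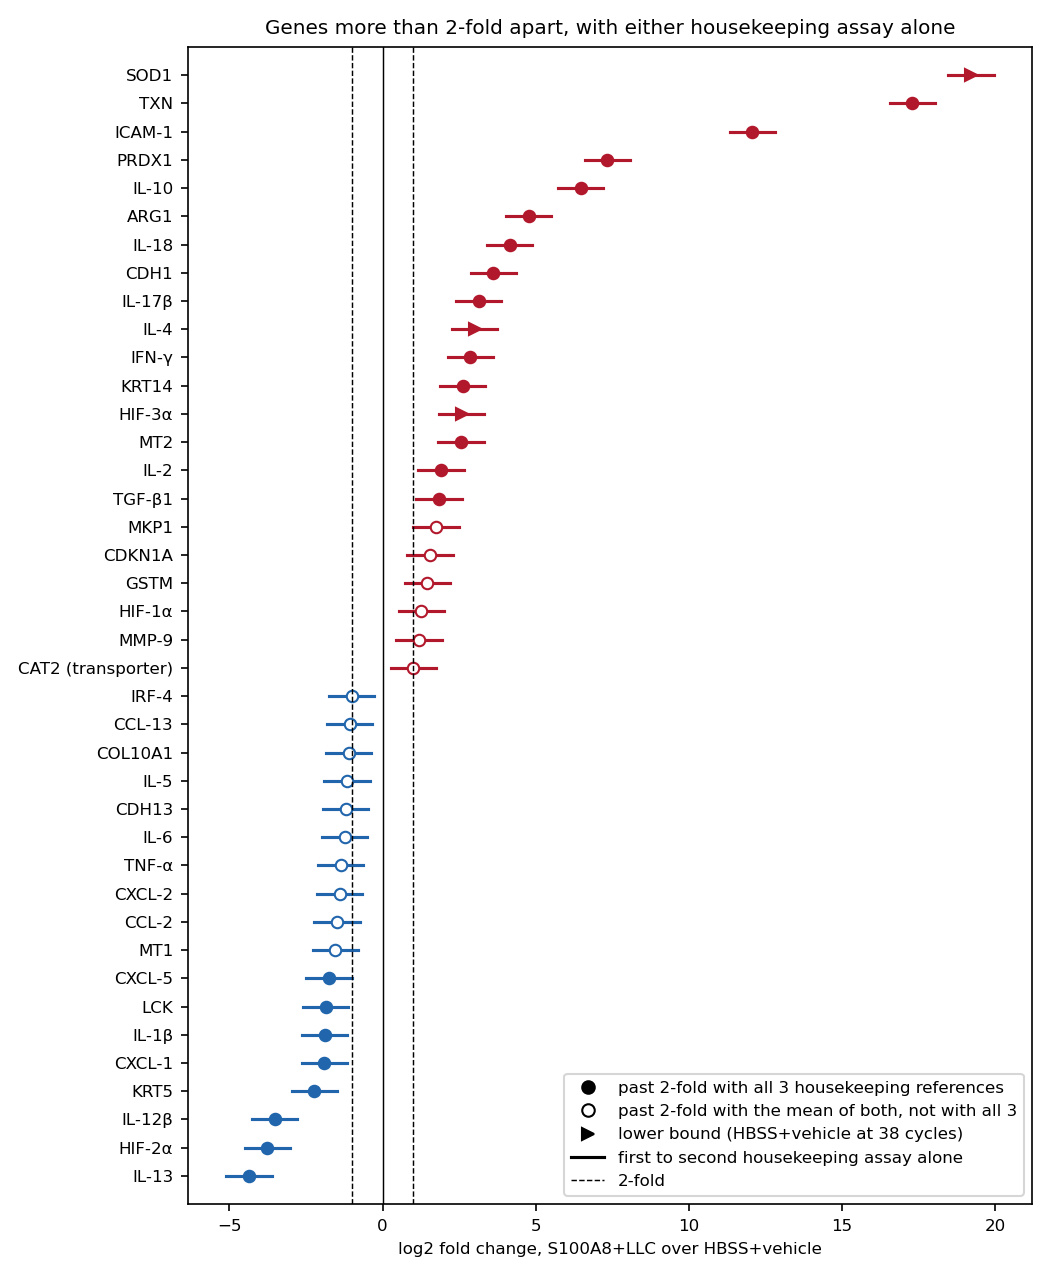
The 40 genes more than 2-fold apart between S100A8+LLC and HBSS+vehicle, by log2 fold change with the mean of both housekeeping assays (points and triangles) and with either alone (ends of the bars). Filled symbols mark the 24 genes past 2-fold with all 3 housekeeping references, triangles point from lower bounds, and *SOD1*, *TXN* and *ICAM-1* lie far to the right of the others.

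Genes near the threshold show how little separates a call from none. Just inside it on the higher side were *CAT2* with a log2 fold change of 1.01, *MMP-9* with 1.19, *HIF-1α* with 1.27 and *GSTM* with 1.46. Just outside were *ALOX12* at 0.93, *S100A4* at 0.92, *CXCL-12* at 0.86 and *S100A8* at 0.81. On the lower side *IRF-4* at -1.01, *CCL-13* at -1.07, *COL10A1* at -1.10 and *IL-5* at -1.16 were inside, while *GM-CSF* at -0.94, *S100A9* at -0.93, *NF-κB* at -0.92 and *CXCL-9* at -0.91 were outside.

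Antioxidant genes held the largest differences. Of the 9 members of this list 5 (55.6%, beside 22.4% of the panel) were more than 2-fold higher and 1 (11.1%, beside 18.4%) lower, of which 4 and none were so with all 3 housekeeping references, and their median log2 fold change was 1.46, against -0.22 for the 98 genes. That median was above 0 under each of the references and Ct limits tried, between 0.70 and 2.20. *SOD1*, the cytosolic superoxide dismutase, stood at 38 cycles in the control, 30.55 with S100A8 alone, 21.81 with LLC alone and 19.79 with both. The control value is the limit of the assay, and S100A8+LLC was the group with the lowest Ct of the 4. The log2 fold change was at least 19.20 with both treatments, and it was 16.20 with Ct values capped at 35. In the paper, superoxide dismutase activity was lower in lungs with LLC alone than in controls, and at control levels with both treatments. The activity was thus measurable in control lungs, where this transcript stood at the limit. *TXN*, thioredoxin, was detected at 37.41 cycles in the control, 32.72 with S100A8 alone, 20.92 with LLC alone and 21.11 with both. Its log2 fold change of 17.29 became 14.88 with the cap, and both groups with cancer were detected more than 10 cycles earlier than both groups without. *PRDX1*, peroxiredoxin 1, had a Ct of 30.55, 24.95, 22.07 and 24.20 across the same groups. S100A8+LLC exceeded HBSS+vehicle 162-fold.

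The promoters of *SOD1* and *PRDX1*, 2 of the 4 highest genes, are shown because both carry the letters TGACNNNGC, the core of the antioxidant response element through which NRF2 induces antioxidant genes. Both sequences are the 250 bases before the start of the gene in RefSeq on GRCm38.p6, at chr16:90220512-90220761 (plus strand) for *Sod1* and chr4:116685349-116685598 (plus strand) for *Prdx1*. They are printed 5′ to 3′, with the match, which lies on the opposite strand in both, in capitals.
Sod1: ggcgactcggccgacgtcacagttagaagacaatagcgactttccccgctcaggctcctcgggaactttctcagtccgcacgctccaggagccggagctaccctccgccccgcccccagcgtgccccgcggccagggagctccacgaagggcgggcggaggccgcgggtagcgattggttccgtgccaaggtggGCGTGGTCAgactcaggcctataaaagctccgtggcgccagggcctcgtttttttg
Prdx1: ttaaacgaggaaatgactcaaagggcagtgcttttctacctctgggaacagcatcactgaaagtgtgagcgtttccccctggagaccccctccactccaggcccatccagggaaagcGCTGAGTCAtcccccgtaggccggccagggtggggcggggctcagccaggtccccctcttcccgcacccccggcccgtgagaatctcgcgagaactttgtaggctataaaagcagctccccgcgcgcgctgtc
Searched on both strands, the motif was found in 10.2% of 32851 mouse promoters of this length, and in 12 of the 68 panel genes with a promoter in the table. It lay 56 to 48 bases before the start of *Sod1* and 133 to 125 bases before that of *Prdx1*. *MT2* and 1 of the 2 windows listed for *IL-4* also held it, while the window of *TXN* did not. Of the 12 genes, 5 were more than 2-fold higher with the mean reference and 4 with all 3 housekeeping references, none was lower and 7 were not called. Of the 68 genes 22.1% were higher and 19.1% lower. A match is no more than these letters in this window.

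The remaining antioxidant genes differed less. *MT2*, a metallothionein that binds metals and oxidants, was detected at 22.47 cycles in the control, 21.23 with S100A8 alone, 20.53 with LLC alone and 20.90 with both, and was 5.90-fold higher in S100A8+LLC. Its relative *MT1* had a Ct of 23.56, 25.34, 24.88 and 26.09 and was 2.91-fold lower. Before any reference is applied, the control thus had the highest Ct of the 4 groups for *MT2* and the lowest for *MT1*. Relative to the first housekeeping assay alone, *MT1* in S100A8+vehicle was not below the control. *GSTM*, a glutathione transferase, was 2.75-fold higher, and *HO-1* (heme oxygenase 1), *GPX1* (glutathione peroxidase 1) and *CAT* (catalase) had log2 fold changes of 0.72, 0.67 and 0.50.

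Among the 6 enzymes and transporters of oxidants, nitric oxide, arginine and tryptophan, 2 (33.3%) were more than 2-fold higher, beside 22.4% of the panel, and none lower, and only *ARG1* was higher with all 3 housekeeping references. *ARG1*, arginase 1, an enzyme of suppressive myeloid cells that removes arginine, was detected at 31.03 cycles in the control, 26.87 with S100A8 alone, 25.71 with LLC alone and 27.25 with both. The 3 treated groups were all detected more than 3 cycles earlier than the control. *ARG1* was 27.3-fold higher in S100A8+LLC. *ARG2*, the mitochondrial arginase, had a log2 fold change of 0.41, and *iNOS*, the inducible nitric oxide synthase that uses the same amino acid, was the lowest of the list at -0.72. *CAT2*, an arginine transporter, was past the threshold with a Ct of 35.61 against 35.59, so that 0.99 of its log2 fold change came from the reference. The median of this list was 0.47 and turned to -0.27 with the second housekeeping assay alone.

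The 18 cytokines split in both directions, with 7 more than 2-fold higher (38.9%, beside 22.4% of the panel), 6 lower (33.3%, beside 18.4%) and a median log2 fold change of -0.16, between -1.05 and 0.59 over the alternatives. All 7 higher cytokines were past 2-fold with each housekeeping assay, as were 3 of the 6 lower ones. *IL-10*, which restrains inflammation, had a Ct of 36.68 in HBSS+vehicle and 31.20 in S100A8+LLC and was 88.6-fold higher, or 27.7-fold with Ct capped at 35. *IL-18*, an inducer of interferon-γ, was detected at 33.56 cycles in the control, 31.39 with S100A8 alone, 28.20 with LLC alone and 30.40 with both, and was 17.8-fold higher. *IFN-γ*, the effector of T cells and NK cells, had a Ct of 31.24 and 29.36 in HBSS+vehicle and S100A8+LLC and was 7.31-fold higher. *IL-17β* had 30.38 in HBSS+vehicle and 28.23 in S100A8+LLC, an 8.82-fold difference, but 35.78 in S100A8+vehicle, the highest Ct of the 4 groups. *TGF-β1*, a growth inhibitor and immune suppressor, had a Ct of 24.17 and 23.32 and was 3.58-fold higher, the only one of the 7 below 30 cycles in the control. *IL-4*, a type 2 cytokine, went from the limit of 38 to 35.98 cycles, at least 8.06-fold higher. *IL-2*, the T cell growth factor, went from 36.89 to 35.97 cycles, 3.76-fold higher.

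Of the lower cytokines, *IL-13*, a type 2 cytokine that drives mucus and fibrosis, had the lowest value of the panel. It was detected at 27.09 cycles in the control, 30.73 with S100A8 alone, 32.63 with LLC alone and 32.44 with both, so that all 3 treated groups were detected later than the control. It was 20.5-fold lower in S100A8+LLC. *IL-12β*, the p40 chain shared by IL-12 and IL-23, had a Ct of 26.04, 30.07, 22.84 and 30.55 across the same groups and was 11.5-fold lower. Here both groups given S100A8 were detected later than the control, and HBSS+LLC earlier. *IL-1β*, a product of activated myeloid cells, had 21.12, 23.21, 21.64 and 24.00 and was 3.71-fold lower, with the highest Ct in S100A8+LLC. *TNF-α*, *IL-6* and *IL-5* were 2.58-fold, 2.35-fold and 2.23-fold lower, and none of these 3 was past 2-fold with the first housekeeping assay alone.

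**Figure D2:**
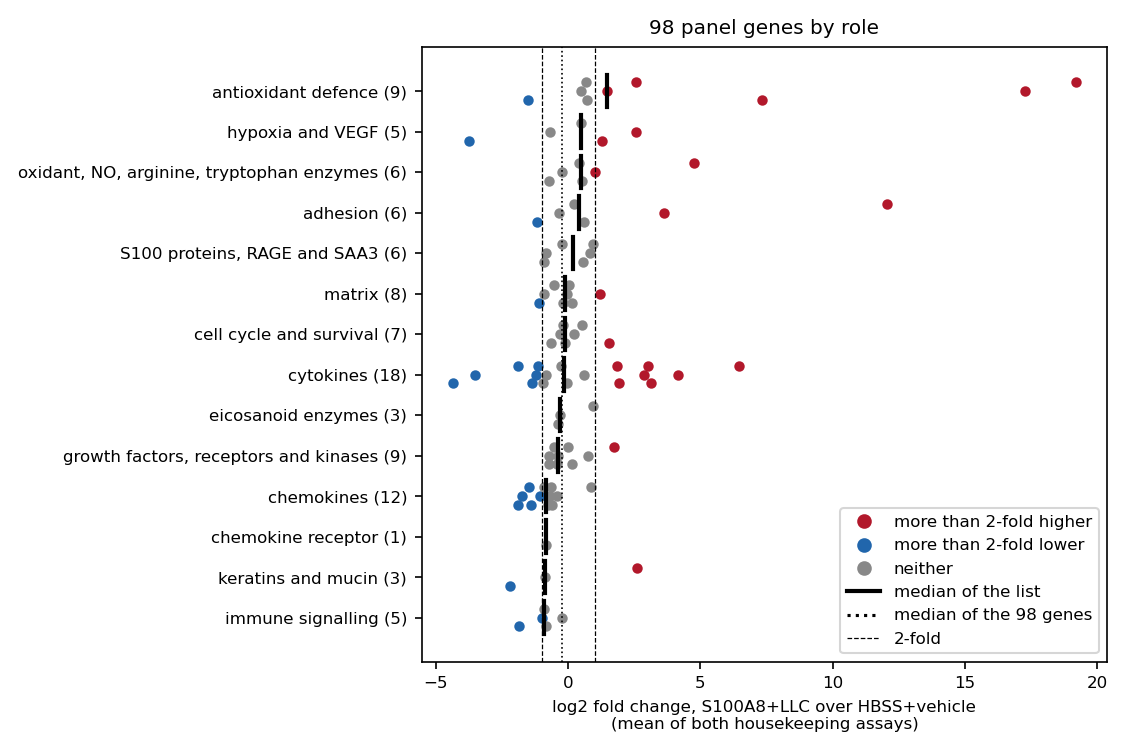
Log2 fold change of each of the 98 genes, S100A8+LLC over HBSS+vehicle, grouped by role with the number of genes in parentheses (points; small vertical offsets only separate them), with each list's median as a bar. Antioxidant genes have the highest median at 1.46, cytokines spread from -4.36 to 6.47, and 11 of 12 chemokines lie below 0 with this reference, the mean of both housekeeping assays.

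Chemokines lay mostly to one side with the mean reference. Of 12, none was more than 2-fold higher and 5 (41.7%) were more than 2-fold lower, beside 18.4% of the panel. All 12 had a control Ct below 30, where 18 of 78 panel genes were lower. Of the 5, 2 were lower with all 3 housekeeping references. With the second assay alone 11 were lower, beside 47 of the 98. With the first alone 2 were lower and 1 higher, beside 8 and 37. The paper reports no significant change in chemokine mRNA across its groups. With the mean reference 11 had a log2 fold change below 0, beside 55 of the 98 genes, while 7 did, beside 29 of the 98, when only the first assay was used. Their median was -0.85 and stayed below 0 under every alternative, between -1.58 and -0.11. *CXCL-1*, *CXCL-2* and *CXCL-5* attract neutrophils through CXCR2. *CXCL-1* was detected at 24.26 cycles in the control, 26.02 with S100A8 alone, 25.30 with LLC alone and 27.15 with both and was 3.73-fold lower. *CXCL-5* had 23.75, 25.86, 25.57 and 26.49 and was 3.36-fold lower, and *CXCL-2* had 23.41, 24.37, 23.83 and 25.80 and was 2.64-fold lower. Relative to the mean of both housekeeping assays, *CXCL-1* and *CXCL-2* were lowest in S100A8+LLC, but between the single-treatment groups with the second assay alone, and *CXCL-5* was lowest in HBSS+LLC with a log2 fold change of -2.16, but in S100A8+LLC when only the first assay or the panel's median was used. *CCL-2*, the attractant of monocytes, was 2.81-fold lower and the assay named *CCL-13* 2.10-fold lower. *CXCL-12*, which retains leukocytes in tissues, was the highest of the list at 0.86, and its receptor *CXCR4* had -0.85.

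The promoters of *CXCL-1* and *CXCL-2*, both on chromosome 5, are shown because both hold the letters GGANTTTCC, a form of the site bound by NF-κB, which induces many chemokines. Both are the 250 bases before the start in RefSeq on GRCm38.p6, at chr5:90890995-90891244 (plus strand) for *Cxcl1* and chr5:90903649-90903898 (plus strand) for *Cxcl2*, printed 5′ to 3′. The capitals mark the match, which lies 70 to 62 bases before the start of *Cxcl1* and 96 to 88 bases before that of *Cxcl2*.
Cxcl1: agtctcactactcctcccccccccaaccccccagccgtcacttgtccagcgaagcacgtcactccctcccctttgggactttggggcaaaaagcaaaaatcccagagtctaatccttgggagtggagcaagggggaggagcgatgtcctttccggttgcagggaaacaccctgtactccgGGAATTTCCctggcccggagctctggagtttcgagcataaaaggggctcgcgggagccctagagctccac
Cxcl2: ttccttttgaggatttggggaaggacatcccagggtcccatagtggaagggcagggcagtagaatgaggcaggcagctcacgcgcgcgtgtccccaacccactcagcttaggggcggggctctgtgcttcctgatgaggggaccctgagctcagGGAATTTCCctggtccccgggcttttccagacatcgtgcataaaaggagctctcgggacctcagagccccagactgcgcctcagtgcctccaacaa
The motif, searched on both strands, was in 1.07% of the 32851 promoters and in 8 of the 68 panel genes with a promoter in the table. These were *CXCL-1*, *CXCL-2*, *IL-6* and *IL-13*, all more than 2-fold lower with the mean reference, *ICAM-1* and *KRT14*, both higher, and *CXCL-10* and *M-CSF*, which were not called. When only the first assay was used, *CXCL-2* and *IL-6* were not past 2-fold. Of the 68 genes 19.1% were lower and 22.1% higher. The panel was assembled from immune, redox and cancer genes, so these shares are not of like genes.

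The transcripts of S100A8 and its partner were not past 2-fold with the mean reference. *S100A8* was detected at 19.94 cycles in the control, 20.18 with S100A8 alone, 19.45 with LLC alone and 20.12 with both, a log2 fold change of 0.81 with the mean reference, 1.55 with the first housekeeping assay and 0.07 with the second. *S100A9* had 19.15, 19.53, 19.19 and 21.07, a log2 fold change of -0.93 with the mean reference, -0.19 with the first and -1.67 with the second. The 2 partner transcripts thus had values of opposite sign with the mean reference, and *S100A9* had its highest Ct in S100A8+LLC. S100A8 was given as protein, which this assay does not detect. *S100A4*, linked to cell movement, was the highest of the 6 members of the list at 0.92. None of the 6 was called with the mean reference, beside 22.4% of the panel higher and 18.4% lower. When only the first assay was used, 3 were more than 2-fold higher, beside 37 of the 98. When only the second was used, 2 were lower, beside 47 of the 98.

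Signalling genes, growth factor receptors and cell cycle genes were counted in 3 lists. Of 5 immune signalling genes 2 (40%) were more than 2-fold lower, beside 18.4% of the panel, and 1 of them was lower with all 3 housekeeping references. With only the second assay 4 of the 5 were lower, beside 47 of the 98. All 5 lay below 0 with the mean reference, 4 when only the first assay was used, and their median was -0.92, between -1.66 and -0.18 over the alternatives. *LCK*, the kinase of the T cell receptor, was detected at 20.76 cycles in the control, 23.83 with S100A8 alone, 22.79 with LLC alone and 23.61 with both. It was 3.63-fold lower, with all 3 treated groups detected at least 2 cycles later than the control. *IRF-4*, a lymphocyte and macrophage transcription factor, was 2.01-fold lower, and *SOCS3*, a feedback inhibitor of cytokine signalling, was the highest of the list at -0.22. Among 9 growth factors, receptors and kinases, *MKP1*, a phosphatase that switches off MAP kinases, was 3.34-fold higher, and *KIT*, the stem cell factor receptor, was the lowest at -0.74. The called share was 11.1% higher and none lower, beside 22.4% and 18.4% of the panel. With only the second assay 5 of the 9 were lower and none higher, beside 47 and 16 of the 98. Among 7 cell cycle and survival genes, *CDKN1A*, the p21 inhibitor of the cell cycle, was 2.93-fold higher, *ANXA5* was the lowest at -0.67, and *MKI67*, a mark of dividing cells, had -0.21. The called share was 14.3% higher and none lower, beside the same shares of the panel. With only the second assay 2 of the 7 were lower and none higher, beside 47 and 16 of the 98. Of the eicosanoid enzymes, *ALOX12* was highest at 0.93 and *COX-2* lowest at -0.37.

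The hypoxia list divided between subunits. *HIF-2α* was detected at 28.64 cycles in the control, 34.23 with S100A8 alone, 30.59 with LLC alone and 33.39 with both and was 13.5-fold lower. This subunit is abundant in lung endothelium and alveolar epithelium. *HIF-3α*, which can oppose the other 2 α subunits, was at the limit of 38 cycles in both groups without cancer, at 35.27 in HBSS+LLC and at 36.41 in S100A8+LLC, at least 5.98-fold higher. *HIF-1α* was 2.41-fold higher from 35.03 cycles in the control and 34.75 with both, so that 0.99 of its log2 fold change of 1.27 came from the reference. *VEGFα*, their angiogenic target, had a log2 fold change of 0.48, and *HIF-1β*, the common partner, -0.68.

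Adhesion and epithelial genes held 2 of the 8 highest values. Of 6 adhesion genes 2 (33.3%) were more than 2-fold higher, beside 22.4% of the panel, and 1 (16.7%) lower, beside 18.4%. Their median log2 fold change of 0.40 turned to -0.34 with the second housekeeping assay alone. *ICAM-1*, the endothelial ligand on which leukocytes leave the blood, was detected at 32.47 cycles in the control, 21.03 with S100A8 alone, 19.23 with LLC alone and 21.39 with both. The control was detected more than 11 cycles later than each treated group, and the log2 fold change was 12.07. *VCAM-1*, another such ligand, had -0.35. *CDH1*, E-cadherin of epithelial junctions, had 22.38, 18.79, 17.97 and 19.75 and was 12.3-fold higher, with a Ct below 23 in every group. *CDH13*, a cadherin without a transmembrane domain, was 2.30-fold lower.

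*KRT14* and *KRT5*, the keratin partners of basal epithelial cells, lay on opposite sides. *KRT14* was detected at 29.41 cycles in the control, 30.84 with S100A8 alone, 30.75 with LLC alone and 27.79 with both and was 6.11-fold higher. *KRT5* had 25.92, 30.46, 28.69 and 29.13 and was 4.66-fold lower. *KRT14* had its lowest Ct in S100A8+LLC, and *KRT5* its lowest in the control. In the matrix list, *MMP-9*, a gelatinase of neutrophils and macrophages, was 2.28-fold higher, *COL10A1* was 2.14-fold lower, and the median of the 8 genes was -0.11.

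Differences between related genes do not depend on the reference, and several were wide. *IL-4* exceeded *IL-13* by at least 7.37 in log2 fold change, and *IFN-γ* exceeded *IL-12β* by 6.39. *HIF-3α* exceeded *HIF-2α* by at least 6.34, and *HIF-1α* exceeded it by 5.03. *KRT14* exceeded *KRT5* by 4.83, *CDH1* exceeded *CDH13* by 4.82, *ARG1* exceeded *ARG2* by 4.36 and *MT2* exceeded *MT1* by 4.10. In S100A8+vehicle and HBSS+LLC, in this order, the gap was 3.11 and 1.43 for *KRT14* and *KRT5*, 4.93 and 2.13 for *IFN-γ* and *IL-12β*, and 3.02 and 3.26 for *MT2* and *MT1*. It was at least 4.40 and at least 12.85 for *IL-4* and *IL-13*, 5.16 and 4.79 for *ARG1* and *ARG2*, 4.27 and 5.83 for *HIF-1α* and *HIF-2α*, and 4.76 in both for *CDH1* and *CDH13*. Neither group was thus on 1 side of S100A8+LLC for all of these pairs. *S100A8* exceeded *S100A9* by 1.74 in S100A8+LLC, where the gap was 0.14 in S100A8+vehicle and 0.53 in HBSS+LLC. The 3 treated groups share the single HBSS+vehicle value, which enters every gap.

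Marker genes of lung cell types were read beside these values. *AGER* and *RAGE*, 2 assays named for the receptor gene that marks alveolar type I cells, had a Ct of 16.06 and 16.86 in HBSS+vehicle and 17.90 and 18.07 in S100A8+LLC. The marker was thus detected early in both groups. Their log2 fold changes were -0.85 and -0.22, a difference of 0.63 between assays of the same gene. Those of *PTGS2* and *COX-2*, also names of the same gene, were -0.33 and -0.37. The log2 fold changes of *PTGS2* and *COX-2* differed by 1.47 in S100A8+vehicle, so agreement here does not bound the error of an assay. In Ct, *COX-2* was detected 6.61 cycles later than *PTGS2* in HBSS+vehicle and 6.65 later in S100A8+LLC, so the 2 assays disagreed on the level. The marker of T cells, *LCK*, was 3.63-fold lower. Of the cytokines, *IFN-γ*, *IL-2* and *IL-4* were higher, while *IL-13* and *IL-5* were lower. *IL-2* and *IL-4* were above 35 cycles in both groups. The granulocyte markers *S100A8* and *S100A9* had log2 fold changes of 0.81 and -0.93 beside the lower neutrophil chemokines. The part of cell numbers in these values was not tested.

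With the mean reference, high fold changes came mainly from genes with a late Ct in the control. Of the 20 genes above 30 cycles in HBSS+vehicle, 14 were more than 2-fold higher and none lower, with a median log2 fold change of 2.73. Of the 78 genes at or below 30 cycles, 8 were higher and 18 lower, with a median of -0.37. Among the 16 higher genes that passed with all housekeeping references, 12 had a control Ct above 30 and 4 did not, namely *CDH1*, *KRT14*, *MT2* and *TGF-β1*. All 8 of the lower genes had a control Ct at or below 30. With the second housekeeping assay alone, 12 of the 20 late genes were higher and 3 lower, and with the first alone 15 and none. Of the 78 other genes, 22 were higher and 8 lower with the first alone, and 4 and 44 with the second. The control Ct enters both the grouping and the fold change, and its part in the result was not tested.

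**Figure D3:**
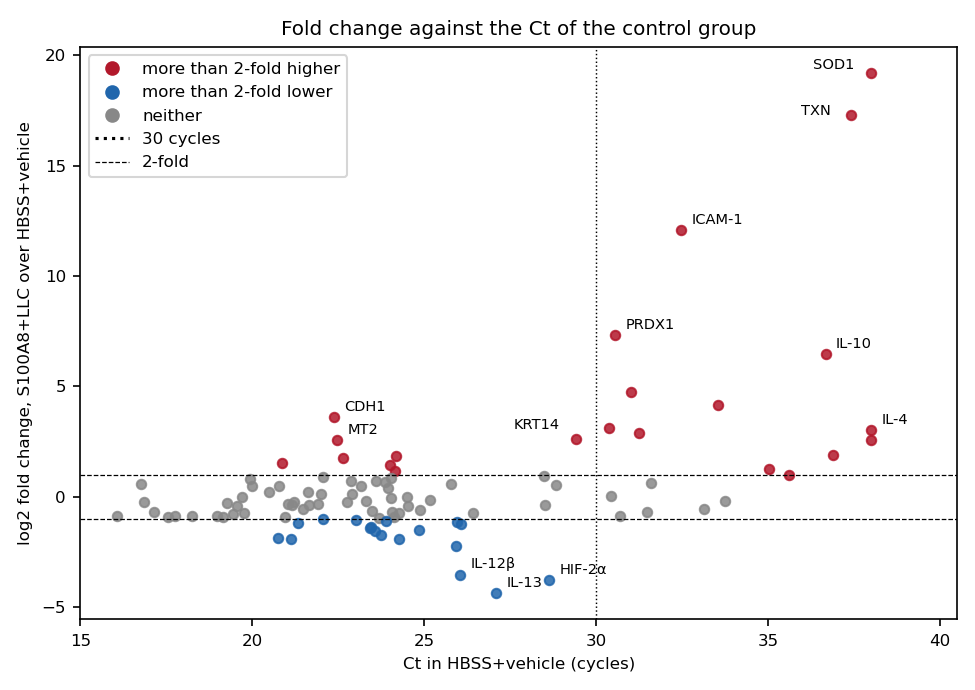
Log2 fold change of the 98 genes, S100A8+LLC over HBSS+vehicle with the mean of both housekeeping assays, against the Ct of each gene in HBSS+vehicle in cycles. To the right of 30 cycles 14 of 20 genes are more than 2-fold higher and none is lower; both axes use the control value.

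The single-treatment groups show how often the combined group stood alone. For 13 genes, with the mean and with each housekeeping assay alone, 1 group lay further from the other 3 than these lay from each other. It was HBSS+vehicle for 9 of them, HBSS+LLC for 4 and S100A8+LLC for none. HBSS+vehicle was the low group for *ICAM-1*, *PRDX1*, *IL-10*, *ARG1*, *IL-18* and *CDH1*, and the high group for *CCL-2*, *LCK* and *KRT5*. For *ICAM-1* the 3 treated groups spanned 0.83 on the log2 scale and the nearest lay 12.07 above the control. For *IL-10* the span was 0.76 and the gap 6.47, and for *ARG1* 0.83 and 4.77. HBSS+LLC was the high group for *IL-4*, *HIF-1α*, *CAT2* and *IDO*, of which *IL-4* had its control at the cycle limit. With the mean reference, S100A8+LLC was the high group for *KRT14* and *IL-2* and the low group for *ANXA5*, *KIT* and *IL-1β*, and none of these 5 kept that place with each housekeeping assay alone. *IL-2* stood at the cycle limit in S100A8+vehicle.

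Placed against both single treatments, the level in S100A8+LLC was above both for 21 genes, between them for 42 and below both for 35 with the mean reference. With the first housekeeping assay alone these were 10, 35 and 53, and with the second alone 27, 61 and 10, so the split rests on the reference. The place was above both with all 3 housekeeping references for 9 genes, *SOD1*, *TXN*, *KRT14*, *IL-2*, *S100A4*, *GPX1*, *MMP-10*, *HIF-1β* and *KRT5*. The margin over the nearer single treatment was 3.35 for *SOD1* on the log2 scale, 2.60 for *KRT14* and 1.64 for *GPX1*. For *MMP-10* it was at least 2.62, since S100A8+vehicle stood at 38 cycles. Over the 3 housekeeping references the smallest margins were 0.03 for *KRT5*, 0.18 for *IL-2* and 0.28 for *TXN*. These 3 genes had a later Ct in S100A8+LLC than in HBSS+LLC, so their place above LLC alone came from the reference. *IL-2* was above 35 cycles in all 4 groups. For *GPX1* the log2 fold change was -0.97 with S100A8 alone, -2.98 with LLC alone and 0.67 with both. For *S100A4* it was 0.13, -2.30 and 0.92. The place was below both with all 3 for 9 genes, *IL-12β*, *IL-1β*, *KIT*, *ANXA5*, *NOX2*, *CXCL-12*, *ALOX12*, *VEGFα* and *IDO*. Their margins with the mean reference ran from -0.27 for *IDO* to -1.24 for *KIT*, and the smallest over the 3 references was -0.05, for *CXCL-12*. *VEGFα* had a log2 fold change of 1.14, 2.32 and 0.48 across the treated groups, and *IL-12β* of -2.59, 2.86 and -3.52.

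**Figure D4:**
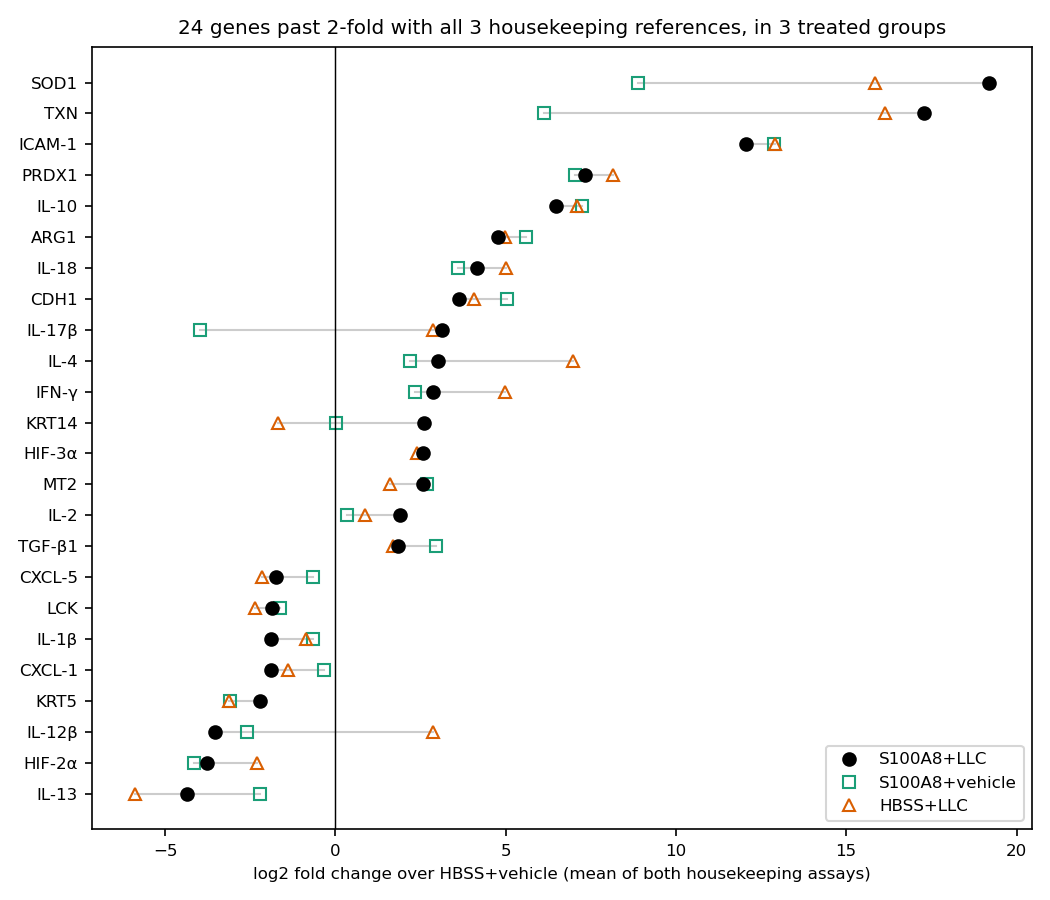
Log2 fold change over HBSS+vehicle, with the mean of both housekeeping assays, of the 24 genes past 2-fold in S100A8+LLC (filled circles) with all 3 housekeeping references, beside S100A8+vehicle (squares) and HBSS+LLC (triangles), which share the same control. *ICAM-1*, *IL-10* and *ARG1* have 3 close symbols, *SOD1* and *TXN* lie lower in S100A8+vehicle, and values of *SOD1*, *IL-4* and *HIF-3α* are lower bounds, with none for *HIF-3α* in S100A8+vehicle, where the value of *IL-2* is an upper bound.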

How the data were processed

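Whole lungs of female C57BL/6J mice were assayed by RT-qPCR with a panel of 98 genes and 2 housekeeping genes. The authors extracted RNA, reverse-transcribed 1.5 µg, set a cut off of 38 cycles and deposited 1 unnormalized mean threshold cycle (Ct) per group and assay, averaged over 4 to 5 mice. The spread between mice is not in these values, so no SD, n or test could be given, and the number of mice limits the precision to an unknown degree.

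Assays are numbered in the deposited table. Each gene was named by matching the fold changes that the authors deposited, a ratio to HBSS+vehicle for each treated group, with those printed by gene in the paper's supplement, to within 0.1%. All 98 genes matched 1 assay, and the group columns were identified by the same match. The deposited fold changes served only as this key. The 2 unmatched assays are taken to be the housekeeping genes that the paper names, β-actin and β2M. They cannot be told apart and are called the first and the second housekeeping assay.

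A log2 fold change is minus the difference between groups in Ct minus the mean housekeeping Ct. Genes past 2-fold were called. The alternatives were either housekeeping assay alone, the panel's median Ct as reference, thresholds of 1.5 and 3, Ct at most 30 or 35 in both groups, and Ct capped at 35, where genes at the cap in both groups had no value. Genes were named by a rule: members past 2-fold with all 3 housekeeping references, each list's highest and lowest member, the 10 highest and 10 lowest genes, the 4 nearest each threshold on either side, genes at 38 cycles, *S100A8*, *S100A9* and repeated genes. Other names were chosen after their values were seen, and so were the pairs of related genes. The genes, lists and rules were chosen with earlier results of these data known. Of the 98 names, 94 matched a mouse gene symbol in RefSeq. Promoters are RefSeq's, on GRCm38.p6. Simulated Ct values with known changes were used to test the calculations. Python 3.11.15, numpy 2.4.6 and matplotlib 3.10.9 were used.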

Additional observations from a re-analysis of the deposited data

How the results depend on the processing

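Each group is 1 averaged value per gene, so no replicate could be left out. No paired analysis was possible because a group's mice were averaged into 1 value. The counts depended on the reference, the threshold and the limit on Ct. With the first housekeeping assay alone, 37 genes were more than 2-fold higher and 8 lower, and the panel's median log2 fold change was 0.52. With the second alone it was -0.96 with 47 genes lower, and with the panel's median Ct as reference it was -0.83 with 41 lower. The share of higher genes among those called was 55% with the mean of both assays, 82.2% with the first, 25.4% with the second and 29.3% with the panel's median. Thresholds of 1.5 and 3 gave 37 and 8 lower genes. Requiring a Ct of at most 30 or 35 in both groups left 8 and 14 higher genes, since fewer genes are counted. The level in S100A8+LLC lay above both single-treatment groups for 10 genes with the first assay alone or the panel's median, and below both for 53, 10 and 55 with the first, the second and the panel's median. Of the 40 called genes, 10 lost their call with the first assay, 6 with the second, 5 with the panel's median and 15 at a threshold of 3. A called gene could not change sign with another reference, which moved log2 fold changes by at most 0.74, nor with a threshold or limit on Ct. With Ct capped at 35 none changed sign. Of the called genes 17, 8 and 4 had no value with Ct at most 30, at most 35 and capped at 35. Of the 14 lists, 9 changed the sign of their median under at least 1 alternative, while antioxidant genes, chemokines, *CXCR4*, immune signalling, and keratins and mucin did not. Late Ct values limit the 14 higher genes that were above 30 cycles in HBSS+vehicle.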
